A study of Mus musculus with 10 samples.

Results

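The 10 genes described here are mouse genes widely used as markers of macrophages and other myeloid cells, followed through cultures of mesenchymal cells. They are Fyb, Tyrobp, C1qa, C1qb, Lyz2, Cd68, Csf1r, Aif1, Cd74 and H2-Ab1. Every non-control probe that carried 1 of these names on the array was taken, which gave 15 probes of 55681, and 10 genes of 34734 names. All 10 were among the 22596 genes tested, those detected above background in both cultures of some group. Tyrobp and C1qa met that condition through the tumor line alone.

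Total RNA of mesenchymal stem cells (MSCs) from FVB mice was hybridised with Cy3 to single-colour Agilent arrays, with 2 independent cultures in exponential growth per group and 1 array per culture. The tumor line was derived from a subcutaneous tumor that grew in an immunodeficient NSG mouse after injection of null BM-MSC. The labels call these samples a tumor in 1 field and a tumor cell line in another, and the design text speaks of a single line, so both cultures share 1 origin. The null BM-MSC, from bone marrow, and the null ASC, from fat, carried floxed Rb and p53 alleles, were kept in osteogenic medium for 10 days, and were then infected with Ad-CMV-Cre, an adenovirus that expresses Cre from the CMV promoter, to remove both genes. For these cultures the source labels name Rb-/-p53-/- mice instead. The wild-type cells of each tissue carried intact alleles, and their labels mention neither osteogenic medium nor adenovirus. Null and wild-type cultures of a tissue therefore differ in genotype, priming and infection together. NSG mice lack mature T, B and NK cells, but still have monocytes, macrophages and granulocytes.

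Monocytes and macrophages take up debris and pathogens, digest them in lysosomes, release complement C1q, and present peptides on MHC class II. Their growth and survival depend on the receptor Csf1r, and many of their surface receptors signal through the adaptor Tyrobp. Bone marrow cultures on plastic can carry macrophages along with the stromal cells, and RNA of a whole culture does not say which cell a transcript came from. In such bulk samples, fewer cells of a type and less RNA per cell cannot be told apart.

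The results turn most on 4 probes, which were bright in the tumor line and dim or near background elsewhere. Their sequences are given 5′ to 3′ as deposited, with the place of each in mm9, so that the transcript stretch behind each value can be seen.
Fyb, brighter probe, chr15:6602484-6602543: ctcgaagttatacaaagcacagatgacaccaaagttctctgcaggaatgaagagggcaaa
Fyb, second probe, chr15:6594839-6594898: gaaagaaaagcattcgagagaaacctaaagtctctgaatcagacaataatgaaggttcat
Tyrobp, chr7:31200651-31202378: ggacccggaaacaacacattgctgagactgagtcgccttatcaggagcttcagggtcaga
C1qa, chr4:136452409-136452468: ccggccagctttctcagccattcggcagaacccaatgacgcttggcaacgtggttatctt
The coordinates of the Tyrobp probe span 1728 bases for 60 bases of sequence, so this probe crosses an intron and matches spliced RNA. The Fyb probes lie in separate stretches of the gene.

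Levels below are log2 signals over the 75th percentile of the array, so 0 is that percentile. The scanner software marks a spot as well above background or not, and the lowest signal so marked lay between -5.855 and -5.044 on the 10 arrays. Changes are log2 differences of group means ± SE from limma, with p-values adjusted over the whole table (Benjamini-Hochberg), and a call means an adjusted p under 0.05. The duplicates differ only as cultures of 1 group, and the p-values measure that spread alone. Where a gene was not well above background on any array of a group, the fold is given as a lower bound against the lowest signal that the arrays of that group marked as such.

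All 18 markers on the mesenchymal list were well above background on all 10 arrays, beside 53.3% to 58.4% of all spots. Against null BM-MSC the tumor line had 8 of them higher and 5 lower, beside 34.6% and 35% of all genes. The changes ran from -5.25 ± 0.072 for Eng to 4.48 ± 0.11 for Alcam. Duplicates correlated at r = 0.994 to 0.996 across probes. The tumor line arrays lay on a slide of their own, so the slide and the tumor line cannot be told apart in any result on it. The targeted gene Trp53 was not well above background on either tumor line array (-7.56 and -7.59). It was at -0.89 and -1.11 in null BM-MSC, at -4.49 and -5.12 in null ASC, at 0.83 and 0.71 in wild-type BM-MSC, and at 1.11 and 1.02 in wild-type ASC. Rb1 was at -1.98 and -1.97 in the tumor line, at 0.65 and 0.54 in null BM-MSC, at -1.91 and -1.97 in null ASC, at 1.90 and 1.92 in wild-type BM-MSC, and at 1.31 on both arrays of wild-type ASC. The place of these probes relative to the excised exons was not determined here. Both genes read higher in null BM-MSC than in null ASC, and the part of this in any difference between the null groups was not tested.

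**Figure D1:**
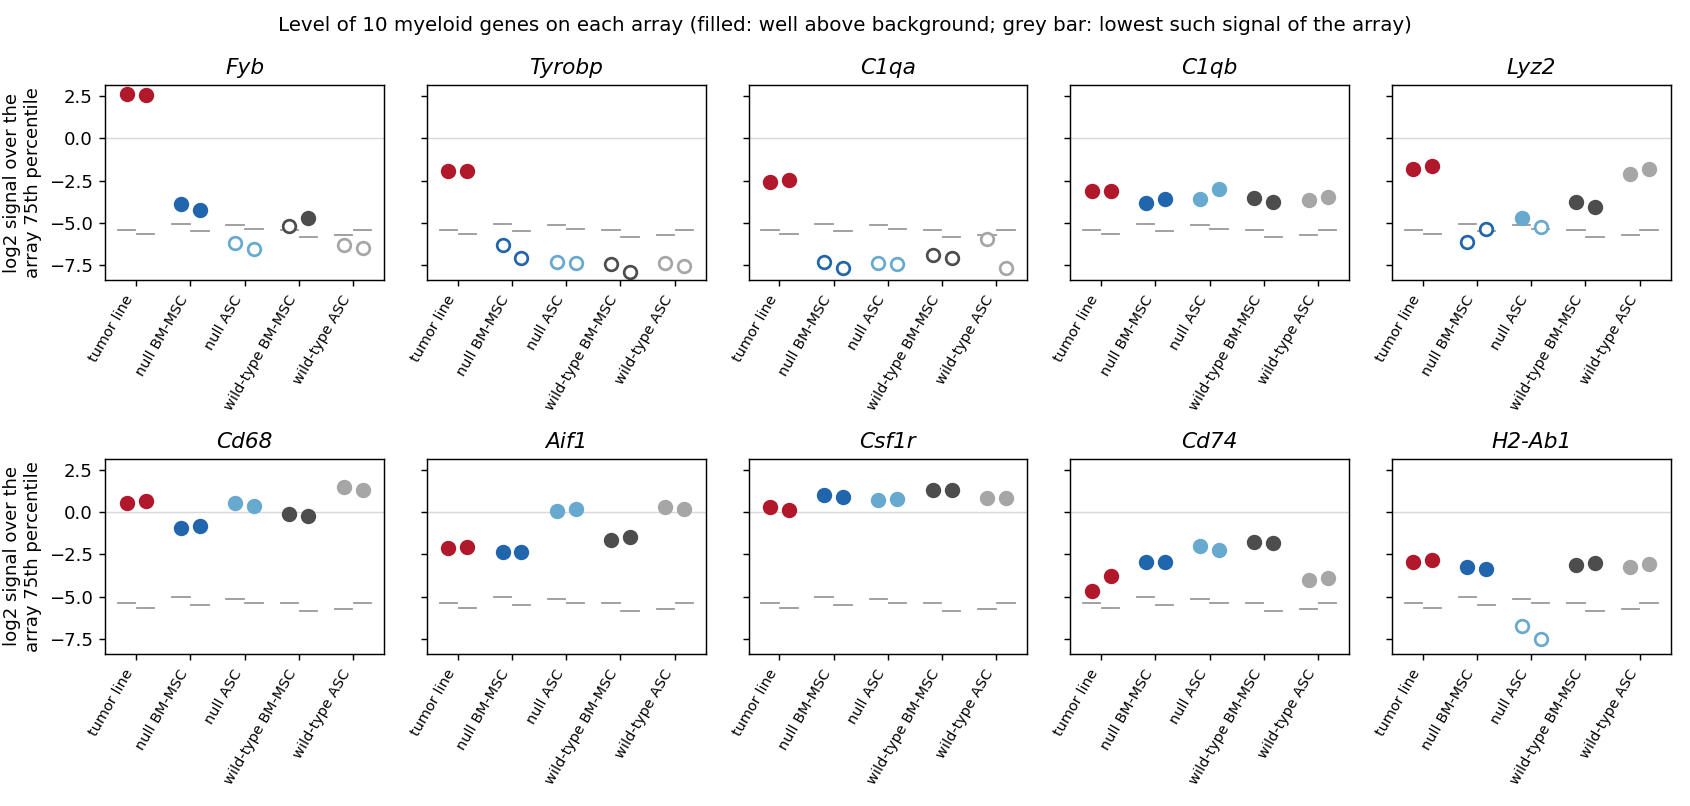
Level of each of the 10 genes on each of the 10 arrays, as log2 signal over the array's 75th percentile, with groups from left to right and 1 point per array. Filled points were well above background, open points were not, and the grey bar is the lowest such signal of that array. Fyb, Tyrobp and C1qa stand above the other 4 groups in the tumor line, H2-Ab1 is dim in null ASC alone, and Csf1r, Cd68, Aif1, C1qb and Cd74 were well above background on every array.

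The tumor line against null BM-MSC changed 9 of the 10 genes, in a comparison that called 69.5% of all genes tested. The 7 that were higher stand beside 34.6% of all genes higher, and the 2 that were lower, Csf1r and Cd74, beside 35% lower. The median change of the 10 was 1.02, beside -0.05 over all genes. Without Tyrobp and C1qa, which passed the detection filter through the tumor line alone, 5 of 8 were higher and the median was 0.48. Against wild-type BM-MSC 6 were higher, where 33% of all genes were, and 3 were lower, where 34.8% were, with 67.8% called in either direction. The medians there were 0.67 for the 10 genes and -0.06 over all genes, and without those genes 4 of 8 were higher with a median of 0.36. These comparisons share the tumor line arrays.

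In null against wild-type BM-MSC 7 of the 10 changed, where 39.5% of all genes were called. The 2 higher ones stand beside 19.3% and the 5 lower ones beside 20.2% of all genes. In null against wild-type ASC 4 changed (41.5% of all genes), 1 of them higher (20.3%) and 3 lower (21.2%). Null BM-MSC against null ASC gave 3 higher, where 26% of all genes were higher, and 3 lower, where 29.4% were, with 55.4% called in all. Wild-type BM-MSC against wild-type ASC gave 3 higher (25.7% of all genes) and 3 lower (28.3%), with 54% called in all. The null effect differed between the tissues for 3 genes, where 31.8% of all genes passed that test. The difference, BM-MSC minus ASC, was above 0 for H2-Ab1 (15.3% of all genes) and below 0 for Cd74 and Aif1 (16.6%).

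**Figure D2:**
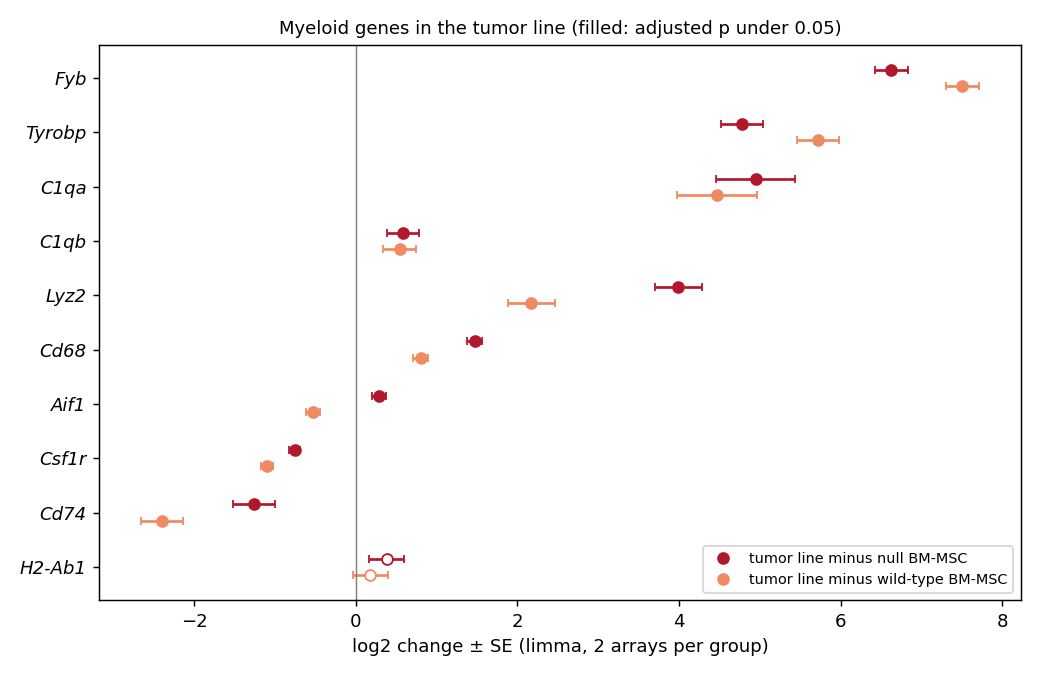
Log2 change ± SE of the 10 genes in the tumor line minus null BM-MSC (dark red) and minus wild-type BM-MSC (orange), with filled points past an adjusted p of 0.05. Fyb, Tyrobp and C1qa lie beyond 4 in both comparisons (fitted values, with Tyrobp and C1qa at background in BM-MSC), Lyz2 lies at 3.99 and 2.17, and Csf1r and Cd74 lie below 0.

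Fyb encodes an intracellular adaptor (ADAP, or SLAP-130) of T cells, platelets and myeloid cells that links receptor signals to integrin adhesion. It was at 2.62 and 2.53 in the tumor line, which is 3220 and 3580 scanner units. Its level was -3.87 and -4.24 in null BM-MSC, -6.17 and -6.52 in null ASC, -5.17 and -4.72 in wild-type BM-MSC, and -6.32 and -6.48 in wild-type ASC. The tumor line thus lay far above all other arrays, and both ASC groups and 1 wild-type BM-MSC array were not well above background. Fyb rose by 6.63 ± 0.20 in the tumor line against null BM-MSC (98.9-fold, adjusted p = 6.6e-07) and by 7.51 ± 0.20 against wild-type BM-MSC (adjusted p = 4.13e-07). It ranked 54 and 22 of 22596 genes by size of increase. The second Fyb probe read -0.80 and -0.91 in the tumor line and was not well above background on any of the other 8 arrays. By that probe the rise was at least 21.2-fold against null BM-MSC and at least 27.3-fold against wild-type BM-MSC. This second probe passed the detection filter through the tumor line alone, so its being higher was set by the filter.

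Among the primary cultures, Fyb was also higher in bone marrow cells, near the limit of detection. Null BM-MSC were at least 2.29-fold above null ASC (change 2.29 ± 0.20, adjusted p = 0.000111). Wild-type BM-MSC, with 1 of 2 arrays well above background, were at least 1.53-fold above wild-type ASC (1.46 ± 0.20, adjusted p = 0.00101), a call that ended with normexp background correction (0.15, adjusted p = 0.159). The second probe did not show these differences, with changes of 0.79 ± 0.29 (adjusted p = 0.065) and -0.01 ± 0.29 (adjusted p = 0.984). By the brighter probe null BM-MSC were 0.88 ± 0.20 above wild-type BM-MSC at adjusted p = 0.0143, a call that ended without null BM-MSC replicate 1 (0.70, adjusted p = 0.0785) or without wild-type BM-MSC replicate 1 (0.66, adjusted p = 0.0703).

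Tyrobp encodes DAP12, the membrane adaptor through which receptors such as TREM2 signal in macrophages, osteoclasts and NK cells. Its level was -1.92 and -1.95 in the tumor line, against -6.33 and -7.09 in null BM-MSC, -7.32 and -7.34 in null ASC, -7.45 and -7.87 in wild-type BM-MSC, and -7.34 and -7.57 in wild-type ASC. In scanner units that is 139 and 161 in the tumor line and at most 6.04 on the other arrays, none of which was well above background. The increase in the tumor line was at least 10-fold against null BM-MSC and at least 12.9-fold against wild-type BM-MSC. Tyrobp passed the detection filter through the tumor line alone, so its being higher was set by the filter. The rise is therefore given without a p-value. A call of 0.95 ± 0.26 in null against wild-type BM-MSC (adjusted p = 0.027) rests on signals that were not well above background in either group. It ended under 7 of the alternatives tried, with adjusted p from 0.0505 to 0.346, so no difference is drawn from it.

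Genes that work with these adaptors were read from a separate list. On this list of 9 tested genes for Tyrobp-coupled receptors and downstream signalling, 6 were higher and none lower against null BM-MSC, and 7 were higher and none lower against wild-type BM-MSC, with medians of 0.89 and 0.79. Higher calls made up 34.6% and 33% of all genes in these comparisons, and calls in either direction 69.5% and 67.8%, so the number called is near that of all genes. The receptor Cd300lb was at -1.08 and -1.01 in the tumor line, at -5.64 and -5.37 in null BM-MSC, and at -5.81 and -6.34 in wild-type BM-MSC. Its rise was at least 17.9-fold and at least 23.9-fold. Trem2, the lipid-sensing receptor that pairs with Tyrobp, was at -2.40 and -2.56 in the tumor line, -7.07 and -7.43 in null BM-MSC, -0.08 and 0.00 in null ASC, -4.77 and -4.83 in wild-type BM-MSC, and 1.66 and 1.71 in wild-type ASC. Trem2 was brightest in the ASC groups, where Tyrobp was not well above background, and wild-type BM-MSC minus wild-type ASC gave -6.49 ± 0.12 (adjusted p = 1.69e-07). The kinase Syk rose by 0.89 ± 0.18 and 0.59 ± 0.18 in the tumor line (adjusted p = 0.00402 and 0.0231). Skap1, a partner of the Fyb protein, rose by 1.20 ± 0.16 and 1.91 ± 0.16 (adjusted p = 0.000502 and 5.01e-05). Hcst, the other adaptor of this family, lies 129 bases from Tyrobp in GRCm38, and was not well above background on either tumor line array (-5.40 and -5.45).

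C1qa, C1qb and C1qc encode the A, B and C chains of C1q, and the protein needs all of them. The genes lie side by side on chromosome 4 in GRCm38, with gaps of 2979 bases between C1qa and C1qc and 3600 bases between C1qc and C1qb. C1qa was at -2.60 and -2.46 in the tumor line, against -7.30 and -7.67 in null BM-MSC, -7.35 and -7.43 in null ASC, -6.91 and -7.09 in wild-type BM-MSC, and -5.94 and -7.63 in wild-type ASC. Only the tumor line arrays were well above background. The rise was at least 6.63-fold against null BM-MSC and at least 8.54-fold against wild-type BM-MSC. C1qa and C1qc passed the detection filter through the tumor line alone, so their being higher was set by the filter. C1qc showed the same pattern, with -3.34 and -3.21 in the tumor line, -7.21 and -7.55 in null BM-MSC, and -7.31 and -7.82 in wild-type BM-MSC, a rise of at least 3.96-fold and at least 5.10-fold.

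C1qb behaved differently from its neighbours. It was well above background on all 10 arrays, at -3.13 on both tumor line arrays, -3.80 and -3.61 in null BM-MSC, -3.60 and -2.99 in null ASC, -3.55 and -3.77 in wild-type BM-MSC, and -3.63 and -3.49 in wild-type ASC. The tumor line lay above both BM-MSC groups and overlapped the null ASC. The increases were 0.58 ± 0.20 against null BM-MSC (adjusted p = 0.036) and 0.54 ± 0.20 against wild-type BM-MSC (adjusted p = 0.048), and both ended when any of their 4 arrays was left out (adjusted p from 0.0633 to 0.15 and from 0.0719 to 0.192). Of the 7 tested genes of the C1 complex list, which includes C1qc, detected in the tumor line alone, 2 were higher and 5 lower in the tumor line in both comparisons. Over all genes 34.6% were higher and 35% lower against null BM-MSC, and 33% and 34.8% against wild-type BM-MSC. Without C1qc, the other 6 had 1 higher and 5 lower in both. The inhibitor Serping1 fell by 5.97 against null BM-MSC and fell by 7.97 against wild-type BM-MSC (SE 0.096 each, adjusted p = 6.66e-08 and 3e-08). The protease C1s1 fell by 2.84 and fell by 4.44 (SE 0.05 each, adjusted p = 8.72e-08 and 2.36e-08). C1qa and C1qc thus rose in the tumor line while Serping1 and C1s1 fell.

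Lyz2, the lysozyme of macrophages and granulocytes that digests bacterial walls, was detected in wild-type cells as well as in the tumor line. It was at -1.81 and -1.65 in the tumor line, -6.11 and -5.34 in null BM-MSC, -4.69 and -5.22 in null ASC, -3.76 and -4.03 in wild-type BM-MSC, and -2.09 and -1.84 in wild-type ASC. Both null groups lay below both wild-type groups. The null BM-MSC arrays were not well above background, and of the 2 null ASC arrays only 1 was. In null ASC it fell by 2.99 against wild-type ASC (SE 0.29, adjusted p = 0.000331), a fitted value with null ASC near the limit of detection. In null BM-MSC it was at least 2.45-fold lower than in wild-type BM-MSC (adjusted p = 0.00313). The tumor line was at least 11-fold above null BM-MSC (adjusted p = 2.68e-05) and 4.49-fold above wild-type BM-MSC (2.17 ± 0.29, adjusted p = 0.000567). Its neighbour Lyz1, which lies 5522 bases away and is near-identical in sequence, so that shared signal was not tested, rose by at least 2.80-fold and at least 3.47-fold.

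Cd68, a lysosomal membrane glycoprotein of macrophages that fibroblasts also make, was bright in every group by its brighter probe. It was at 0.53 and 0.67 in the tumor line, -0.92 and -0.82 in null BM-MSC, 0.51 and 0.37 in null ASC, -0.14 and -0.26 in wild-type BM-MSC, and 1.48 and 1.30 in wild-type ASC. Wild-type ASC were highest and null BM-MSC lowest, and the tumor line lay next to null ASC, with its arrays just above. Null cells were lower in both tissues, by -0.95 ± 0.094 in ASC (adjusted p = 0.000366) and -0.67 ± 0.094 in BM-MSC (adjusted p = 0.00193). The tumor line was 2.77-fold above null BM-MSC (1.47 ± 0.094, adjusted p = 1.53e-05) and 1.74-fold above wild-type BM-MSC (0.80 ± 0.094, adjusted p = 0.000305). With the mean of all Cd68 probes the null BM-MSC change was -0.21 and did not pass (adjusted p = 0.58). A second Cd68 probe, with group means from -7.65 to -5.54, was well above background on 1 tumor line array only. The level thus depends on the probe, and the second gives no check of these values.

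**Figure D3:**
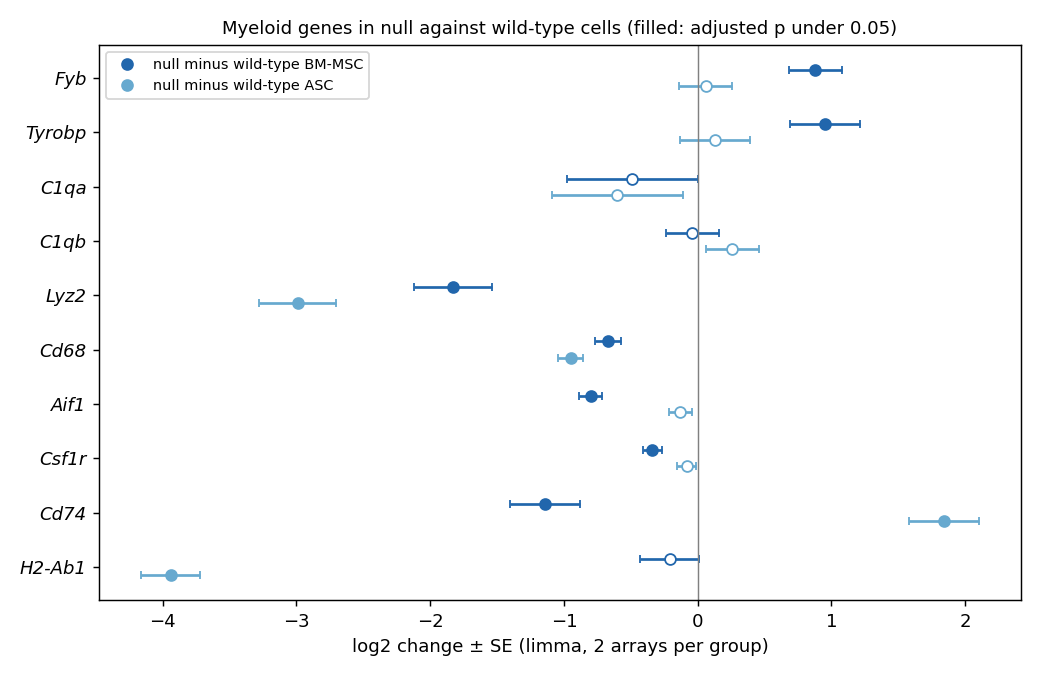
Log2 change ± SE of the 10 genes in null minus wild-type BM-MSC (dark blue) and in null minus wild-type ASC (light blue), with filled points past an adjusted p of 0.05. Lyz2 and Cd68 lie below 0 in both tissues, Cd74 lies at -1.14 in BM-MSC and at 1.84 in ASC, and H2-Ab1 lies at -3.94 in ASC, a fitted value with null ASC at background, and near 0 in BM-MSC.

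Csf1r, the receptor for the macrophage growth factors CSF1 and IL-34, was well above background everywhere and was lower in the tumor line. Its level was 0.29 and 0.10 in the tumor line, 1.00 and 0.91 in null BM-MSC, 0.73 and 0.76 in null ASC, 1.30 on both wild-type BM-MSC arrays, and 0.81 and 0.83 in wild-type ASC. These are levels of its brightest probe, by which the tumor line arrays were the lowest of the 10. It fell by 0.76 against null BM-MSC (SE 0.071, adjusted p = 9.81e-05) and fell by 1.10 against wild-type BM-MSC (SE 0.071, adjusted p = 1.64e-05). The other Csf1r probes were far dimmer, with group means from -4.29 to -3.12 and from -3.07 to -2.3, so the level depends on the probe. They fell too, with changes of -0.74 and -0.76 against null BM-MSC and of -1.17 and -0.57 against wild-type BM-MSC, all past the threshold. In null against wild-type BM-MSC the probes disagreed, with changes of -0.34 ± 0.071 (adjusted p = 0.01), -0.43 ± 0.13 (adjusted p = 0.0411) and 0.19 ± 0.097 (adjusted p = 0.197). Between the tissues the brightest probe was 0.47 ± 0.071 higher in wild-type BM-MSC than in wild-type ASC (adjusted p = 0.00151), while the others, at 0.33 and -0.21, did not pass.

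The ligands differed by tissue. Il34 was at 3.39 and 3.40 in the tumor line, 4.34 and 4.29 in null BM-MSC, -2.51 and -2.73 in null ASC, 4.71 and 4.74 in wild-type BM-MSC, and -2.60 and -3.02 in wild-type ASC. It was 7.53 ± 0.14 higher in wild-type BM-MSC than in wild-type ASC (adjusted p = 1.64e-07). Csf1 rose by 1.48 ± 0.053 in the tumor line against null BM-MSC (adjusted p = 1.27e-06) and by 0.35 ± 0.053 against wild-type BM-MSC (adjusted p = 0.00115), while Il34 changed by -0.92 and -1.33 (adjusted p = 0.000993 and 0.000165). Of the 6 tested colony-stimulating factors and receptors, 1 was higher and 2 lower in the tumor line against null BM-MSC, and 2 were higher and 3 lower against wild-type BM-MSC. Over all genes 34.6% were higher and 35% lower, and 33% and 34.8%. Without Csf2rb2, which passed the filter through the tumor line alone, the other 5 had 1 higher and 2 lower, and 1 higher and 3 lower.

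Aif1 encodes IBA1, a calcium-binding, actin-bundling protein used to stain microglia and macrophages. It was at -2.12 and -2.05 in the tumor line, -2.38 and -2.34 in null BM-MSC, 0.07 and 0.20 in null ASC, -1.65 and -1.47 in wild-type BM-MSC, and 0.32 and 0.19 in wild-type ASC. The split was by tissue, with the 4 ASC arrays above the other 6. The difference was -1.82 ± 0.086 in wild-type BM-MSC minus wild-type ASC (adjusted p = 6.8e-06) and -2.50 ± 0.086 in null BM-MSC minus null ASC (adjusted p = 1.53e-06). The gene fell by 0.80 in null against wild-type BM-MSC (SE 0.086, adjusted p = 0.000636), whereas in ASC the change of -0.13 ± 0.086 did not pass (adjusted p = 0.297). The difference between the null effects, BM-MSC minus ASC, was -0.68 ± 0.12 (adjusted p = 0.00734). The tumor line lay below wild-type BM-MSC, at -0.53 ± 0.086 (adjusted p = 0.00161). Against null BM-MSC it was 0.28 ± 0.086 higher (adjusted p = 0.0263), a call that ended when any of the 4 arrays was left out (adjusted p from 0.053 to 0.115).

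Cd74 encodes the invariant chain, which escorts MHC class II molecules through the cell, and also serves as a receptor for the cytokine MIF. Its level was -4.64 and -3.79 in the tumor line, -2.97 and -2.93 in null BM-MSC, -1.98 and -2.25 in null ASC, -1.76 and -1.86 in wild-type BM-MSC, and -4.03 and -3.88 in wild-type ASC. The tumor line and wild-type ASC were lowest and overlapped. In ASC the gene was 1.84 ± 0.26 higher in null than in wild-type cells (3.57-fold, adjusted p = 0.00164), and in BM-MSC it fell by 1.14 (SE 0.26, adjusted p = 0.0134). The second of these calls ended when any of its 4 arrays was left out, with adjusted p from 0.0513 to 0.0663. The effects differed between the tissues by -2.98 ± 0.36, BM-MSC minus ASC (adjusted p = 0.00152). Among wild-type cells BM-MSC were 2.14 ± 0.26 above ASC (adjusted p = 0.000508). In the tumor line Cd74 fell by 1.26 against null BM-MSC (adjusted p = 0.00431) and fell by 2.40 against wild-type BM-MSC (adjusted p = 0.000192).

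H2-Ab1 encodes the beta chain of the class II molecule I-A. It was at -2.97 and -2.85 in the tumor line, -3.24 and -3.35 in null BM-MSC, -6.75 and -7.47 in null ASC, -3.13 and -3.04 in wild-type BM-MSC, and -3.23 and -3.10 in wild-type ASC. Null ASC was the only group not well above background, and the other 8 arrays lay within a narrow range. The gene was at least 4.25-fold lower in null ASC than in wild-type ASC (-3.94 ± 0.22, adjusted p = 3.59e-05). The change in null BM-MSC was -0.21 ± 0.22, with a 95% interval of -0.73 to 0.32 (adjusted p = 0.512). The difference between these effects, BM-MSC minus ASC, was at least 1.88 on the log2 scale with null ASC at its bound. The fitted difference of 3.74 ± 0.31 (adjusted p = 0.000347), like the fitted -3.94, uses signal at background and is no measured size. The second H2-Ab1 probe overlaps the first over 51 bases and differs from it at 1 base there, so it is not a separate site. By that probe H2-Ab1 was at least 2.67-fold lower in null ASC. In the tumor line the gene did not pass, with changes of 0.38 ± 0.22 against null BM-MSC (95% interval -0.14 to 0.90, adjusted p = 0.159) and 0.18 ± 0.22 against wild-type BM-MSC (adjusted p = 0.501).

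Cd74 and H2-Ab1 therefore moved in opposite directions in null ASC, and all but 1 of the genes called there on the list of other class II genes were lower. Of its 15 tested genes 1 was higher and 8 lower in null ASC, against 4 higher and 5 lower in null BM-MSC. Over all genes 20.3% were higher and 21.2% lower in null ASC, and 19.3% and 20.2% in null BM-MSC. H2-DMb1, a chain of the peptide exchange factor H2-DM, fell by 1.88 in null ASC (SE 0.06, adjusted p = 7.67e-06), and the class II chain H2-Eb1 fell by 1.04 (SE 0.19, adjusted p = 0.00515). In the tumor line 8 of the 15 were higher and 7 lower against null BM-MSC, and 6 higher and 6 lower against wild-type BM-MSC, beside 69.5% and 67.8% of all genes called. H2-DMb1 was not well above background there (-5.51 and -5.62, against 2.27 and 2.31 in null BM-MSC) and was at least 223-fold lower. H2-Eb1 fell by 3.95 against null BM-MSC (SE 0.19, adjusted p = 4.29e-06). H2-Aa, the alpha chain that pairs with H2-Ab1, was not well above background on any of the 10 arrays, with levels from -7.82 to -7.18. Ciita, the master activator of class II genes, was marked so on 1 array, of null ASC.

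Other monocyte and macrophage markers were read from a list of 34 genes with a probe, of which 25 were tested. In the tumor line 22 of the 34 were detected in both cultures, against 8 in null BM-MSC, 12 in null ASC, 11 in wild-type BM-MSC and 14 in wild-type ASC. Of the 25 tested, 16 were higher and 4 lower against null BM-MSC, and 17 higher and 2 lower against wild-type BM-MSC. The median changes were 1.45 and 1.00, and 34.6% and 33% of all genes were higher in these comparisons. However, 9 of the 25 passed the detection filter through the tumor line alone, so that their being higher was set by the filter. Of the other 16, 7 were higher and 4 lower against null BM-MSC (median 0.41), and 8 were higher and 2 lower against wild-type BM-MSC (median 0.43). The summed linear signal of the list, in units of the 75th percentile, was 130 to 137 in the tumor line, 83.6 to 84.4 in null BM-MSC, 54.8 to 56.3 in null ASC, 110 to 113 in wild-type BM-MSC and 54.6 to 58.5 in wild-type ASC. Calls in either direction made up 69.5% of all genes against null BM-MSC and 67.8% against wild-type BM-MSC.

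**Figure D4:**
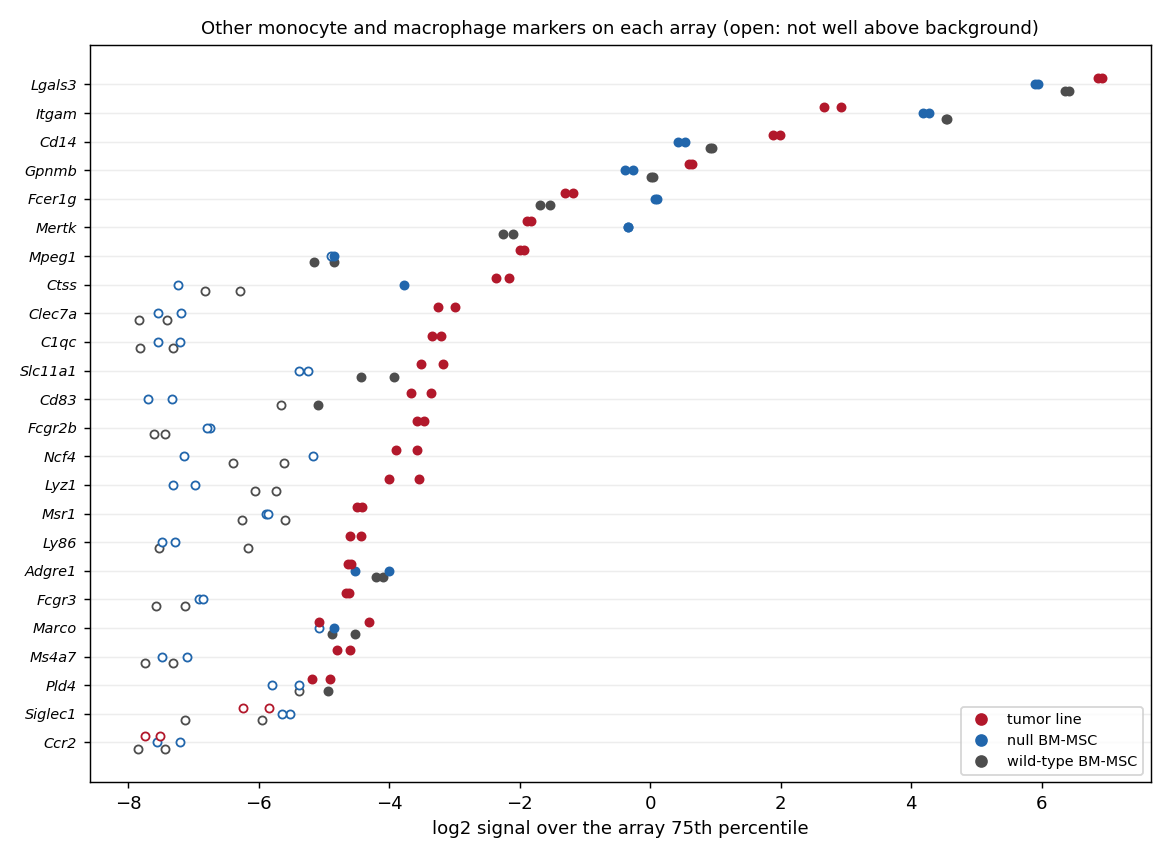
Levels of 24 of the 25 tested monocyte and macrophage markers on each array of the tumor line (red), null BM-MSC (blue) and wild-type BM-MSC (dark grey), as log2 signal over the array's 75th percentile, sorted by the tumor line mean. Open points were not well above background. Most markers in the middle of the list are filled in the tumor line and open in the BM-MSC, while Itgam and Fcer1g were lower in the tumor line than in null BM-MSC.

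Several macrophage markers that rose were at background in BM-MSC, so the size of their rise is only bounded. Clec7a, the receptor dectin-1 for fungal glucans, was at -3.25 and -2.99 in the tumor line, -7.19 and -7.55 in null BM-MSC, and -7.41 and -7.84 in wild-type BM-MSC, a rise of at least 4.42-fold and at least 5.69-fold. Cd83 was at least 3.36-fold higher against null BM-MSC, and the inhibitory Fc receptor Fcgr2b at least 4.30-fold higher against wild-type BM-MSC. The lysosomal protease Ctss was at -2.37 and -2.17 in the tumor line and at -6.82 and -6.29 in wild-type BM-MSC, at least 10.2-fold higher, while its null BM-MSC arrays disagreed at -3.77 and -7.23. Cd83, Fcgr2b and Ctss passed the detection filter through the tumor line alone, so their being higher was set by the filter. Both ASC groups also had Clec7a well above background, at -4.80 and -4.96 in null ASC and -3.94 and -3.77 in wild-type ASC. Some defining macrophage genes stayed dim. Adgre1 (F4/80) was at -4.58 and -4.63 in the tumor line, -4.53 and -4.01 in null BM-MSC, and -4.10 and -4.20 in wild-type BM-MSC, and did not pass in either comparison (adjusted p = 0.139 and 0.0583). The scavenger receptor Cd163 and the mannose receptor Mrc1 were not well above background on any array.

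Leukocyte and lineage markers gave a mixed picture in the tumor line. The pan-leukocyte list had 8 higher and 5 lower of 18 tested against null BM-MSC, and 4 higher and 4 lower against wild-type BM-MSC. Over all genes 34.6% were higher and 35% lower against null BM-MSC, and 33% and 34.8% against wild-type BM-MSC. Of the 18 on the pan-leukocyte list, 4 passed the filter through the tumor line alone, and the other 14 had 4 higher and 5 lower, and 2 higher and 4 lower. The summed signal of this list was 5.14 to 5.24 in the tumor line, against 4.58 to 4.98 in null BM-MSC and 5.00 to 5.64 in wild-type BM-MSC. It was highest in the ASC groups, at 12.8 to 13.5 in null ASC and 13.6 to 14.3 in wild-type ASC. Ptprc, which encodes CD45, was at -5.69 and -5.49 in the tumor line, -4.98 and -5.15 in null BM-MSC, and -5.71 and -5.14 in wild-type BM-MSC, and did not pass (adjusted p = 0.0504 and 0.496). Ikzf1 and Lcp2 were not well above background on any array. Spi1, which encodes PU.1, the factor that drives macrophage genes, was not well above background on any array either, at -7.54 and -7.78 in the tumor line. Of 8 tested myeloid transcription factors 4 were higher and 4 lower against null BM-MSC, and against wild-type BM-MSC 2 were higher and 6 lower. The part of any blood cell in the changes of Fyb, Tyrobp, C1qa and Lyz2 was not tested.

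Markers of other blood lineages were mixed in the tumor line. The granulocyte protease Mmp9, made by many tumor cells too, rose by 6.64 ± 0.20 against null BM-MSC (adjusted p = 6.25e-07), while the granulocyte peptide gene Camp fell by 5.14 (SE 0.16, adjusted p = 7.32e-07) and S100a8 and S100a9 were not well above background on any array. Itgax, which encodes CD11c of dendritic cells and macrophages, was at -2.98 and -3.06 in the tumor line and not well above background on any other array. The alpha globin Hba-a1, whose near-identical copy the probe may also detect, was at -0.07 and -0.17 in the tumor line against -4.30 and -3.91 in null BM-MSC (3.98 ± 0.24, adjusted p = 1.12e-05). The red cell genes Alas2 and Hbb-b2 were not well above background on any array. Against null BM-MSC, where 34.6% of all genes were higher and 35% lower, the granulocyte list had 2 higher and 1 lower of 6 tested, the dendritic cell list 2 higher and 0 lower of 3, and the erythroid and megakaryocyte list 5 higher and 1 lower of 7. The lymphoid list had 1 higher and 3 lower of 6, the mast cell list 0 higher and 1 lower of 2, the endothelial list 1 higher and 0 lower of 6, and the mesenchymal list 8 higher and 5 lower of 18. Itgax passed the filter through the tumor line alone, so its being higher was set by the filter. Of 8 tested osteoclast genes 1 was higher and 7 lower against null BM-MSC, with changes of -3.08 ± 0.039 for the protease Ctsk and -2.82 ± 0.054 for Acp5, a phosphatase.

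**Figure D5:**
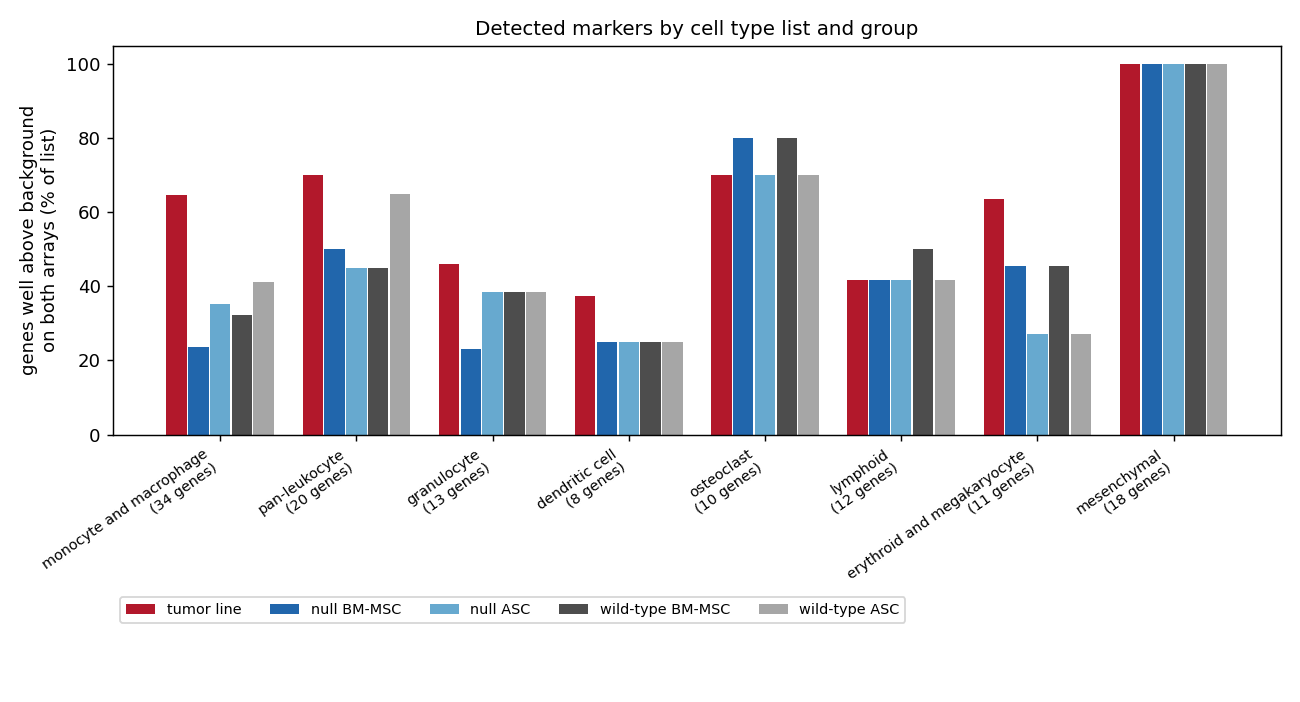
Share of each marker list, in percent of its genes with a probe, that was detected above background in both cultures of a group, with bars from left to right for the tumor line, null BM-MSC, null ASC, wild-type BM-MSC and, last, wild-type ASC. The tumor line bar is the highest of the 5 on the monocyte and macrophage list (22 of 34 genes), and also on the pan-leukocyte (14 of 20), granulocyte (6 of 13), dendritic cell (3 of 8) and erythroid and megakaryocyte (7 of 11) lists, and all 18 mesenchymal genes reach 100% in every group.

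A pattern seen in the tumor line alone was not limited to myeloid genes. Over all genes tested, 308 (1.36%) were well above background on both tumor line arrays and on no other array, Tyrobp and C1qa among them. The corresponding shares were 0.19% for null BM-MSC, 0.257% for null ASC, 0.31% for wild-type BM-MSC and 0.367% for wild-type ASC. On the monocyte and macrophage list 6 of 25 tested genes showed the pattern, namely Msr1, Fcgr2b, C1qc, Ncf4, Ms4a7 and Ly86. So did 3 of 18 on the pan-leukocyte list (Laptm5, Cd52 and Vav1), and Itgax among the 3 tested dendritic cell genes. These genes were named after their values were seen. None showed it on the lists of myeloid transcription factors (8 tested), MHC class II (15), Tyrobp receptors and signalling (9), or colony-stimulating factors and receptors (6). The lists of granulocyte, osteoclast, lymphoid, erythroid and megakaryocyte, mast cell, endothelial and mesenchymal genes had none either.

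The genes with the profile most like each member, by the smallest root mean square difference of centred log2 levels over the 10 arrays, came from many families. Among 14651 candidates Gria1, a glutamate receptor subunit, was nearest to Tyrobp, at 0.199, with group means of -1.63 in the tumor line and -7.51 to -6.76 elsewhere. Clca3b and Myh1 came next, at 0.298 and 0.32. For C1qa the nearest were Hbq1a, Fam181b and Prom1, at 0.397, 0.429 and 0.437. Fyb was nearest to Sema7a, a membrane semaphorin, at 0.436, with group means of 4.95 in the tumor line, -0.82 in null BM-MSC, -3.33 in null ASC, -1.43 in wild-type BM-MSC and -2.95 in wild-type ASC. Lyz2 was nearest to Sorl1, at 0.471, and Lyz1, at 0.476. For H2-Ab1 the nearest was the integrin chain Itga9, at 0.567. These are likenesses over 10 arrays that share 5 group means, and no test was made of them.

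Promoters were looked up for the members in RefSeq's table for GRCm38.p6, each a stretch of 300 bases around the gene start, and 5 of the 10 had an entry. The 3 shown are those with an entry whose rise in the tumor line passed in both comparisons under every alternative tried, Fyb, Lyz2 and Cd68, and capitals mark GAGGAA or, on the other strand, TTCCTC, the core that PU.1 binds.
Fyb, chr15:6579597-6579896, plus strand: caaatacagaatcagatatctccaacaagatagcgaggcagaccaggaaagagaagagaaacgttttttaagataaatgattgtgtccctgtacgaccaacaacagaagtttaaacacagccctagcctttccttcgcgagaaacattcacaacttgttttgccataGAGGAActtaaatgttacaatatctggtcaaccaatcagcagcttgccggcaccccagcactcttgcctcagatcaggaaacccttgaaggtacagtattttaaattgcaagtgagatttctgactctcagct
Lyz2, chr10:117282223-117282522, minus strand: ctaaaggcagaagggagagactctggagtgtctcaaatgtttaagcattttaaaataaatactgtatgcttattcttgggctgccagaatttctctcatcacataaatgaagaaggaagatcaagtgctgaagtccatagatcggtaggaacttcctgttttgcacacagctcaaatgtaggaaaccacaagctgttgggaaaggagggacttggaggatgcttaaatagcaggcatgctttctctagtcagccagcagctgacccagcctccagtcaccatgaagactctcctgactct
Cd68, chr11:69666121-69666420, minus strand: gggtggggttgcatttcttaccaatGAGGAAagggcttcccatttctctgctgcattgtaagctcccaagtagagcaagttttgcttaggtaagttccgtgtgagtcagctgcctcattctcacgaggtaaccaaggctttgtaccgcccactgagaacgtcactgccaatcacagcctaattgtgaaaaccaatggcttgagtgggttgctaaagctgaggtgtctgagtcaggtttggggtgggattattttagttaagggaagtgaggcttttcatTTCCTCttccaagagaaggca
The motif was found at 1 place in the Fyb window, at 2 in that of Cd68 and not in that of Lyz2, and it is present in 28.3% of 32851 promoters of the same length. The Fyb window lies inside the annotated gene, chr15:6522796-6665608, so it belongs to an internal start. A match is a description of these letters and not of binding.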

How the data were processed

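Each deposited array file gives the intensity of every spot on a linear scale, written by Feature Extraction 10.7.3.1 after background subtraction, per the file headers. The same headers place the probes in mm9. The deposited series matrix holds log2 values of unstated normalization, with column medians of 5.04 to 5.06, and correlated with the scanner values at r = 0.989 to 0.993. It served as an alternative only. The submitters' processing notes name limma without saying where it was used.

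Spots flagged as outliers were dropped, a probe's spots averaged as log2 processed signal, and the 75th percentile of the array (483 to 621 scanner units) subtracted. No spot was saturated, and 53.3% to 58.4% of spots were well above background. A gene was read from its brightest probe by mean level. Names came from RefSeq symbols by accession (27235 probes), symbol (3581), synonym (565) or letter case (41), while 24259 probes retained the deposited name.

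One limma 3.58.1 model in R 4.3.3 with data.table (version 1.17.8) fitted the 5 groups over 10 arrays, with 7 contrasts, 5 residual and 1.35 prior degrees of freedom, and two-sided p-values adjusted by Benjamini-Hochberg over 22596 genes. The scripts were tested on simulated data. The number of arrays limits the precision.

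All members were described, with up to 4 genes per marker list and contrast by size of change among those called, up to 3 per list by level, and the 3 most alike genes of members with the widest range. Members and lists were chosen with earlier results of these data known. The alternatives were other scalings, background correction, filters, probe rules, prior, a replicate block, the series matrix and leaving out each array. Values of some marker genes are not reported here, though the list counts include them.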

Additional observations from a re-analysis of the deposited data

Results flagged for a closer look

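Of the 10 genes, 3 responded differently to the null state in the 2 tissues, by the test of the difference itself, taken as BM-MSC minus ASC. For Cd74 the difference was -2.98, with opposite directions in the tissues. For H2-Ab1 the fitted value of 3.74 is no measured size, since null ASC was at background, and the data bound the difference at 1.88 or more. For Aif1 it was -0.68, with a decrease that passed in BM-MSC only. The null groups also differed in the targeted genes. Trp53 was at -0.89 and -1.11 in null BM-MSC and at -4.49 and -5.12 in null ASC. Rb1 was at 0.65 and 0.54 in null BM-MSC and at -1.91 and -1.97 in null ASC. The part of this in the 3 differences was not tested.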

How the results depend on the processing

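Of the 70 results (10 genes in 7 comparisons), 45 stayed on the same side of the threshold under every alternative and 25 changed under at least 1. In 1435 recomputed values, 1330 kept direction and call, 70 lost the call, 34 gained one and 1 reversed. The reversal was C1qa in wild-type BM-MSC against wild-type ASC, at -0.21 with all arrays. It read 0.63 without wild-type ASC replicate 1 and -1.06 without wild-type ASC replicate 2. No wild-type array was well above background for C1qa, so these values rest on signal at background. The cause was not tested. Requiring signals well above background on all 10 arrays left 5 members to test, which by itself lowers the counts, to 2 for null against wild-type ASC, 4 for the same in BM-MSC and 5 in each tumor line comparison. Normexp correction gave 6 differences of null effects in place of 3, and the cause was not tested. With 1 array left out, the counts ran from 4 to 5 for null against wild-type ASC, 4 to 8 for null against wild-type BM-MSC (4 without null BM-MSC replicate 1), 3 to 4 for the difference, 4 to 6 and 6 to 7 for null and wild-type BM-MSC against ASC, 7 to 10 for the tumor line against null BM-MSC and 8 to 9 against wild-type BM-MSC. Scaling to the array median moved the tumor line changes up by 0.1 and 0.12, and reversed no call.

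Duplicate numbers do not pair the cultures, since the correlation of duplicate differences between groups ran from -0.12 to 0.12. A replicate block gave 4, 7, 3, 6, 6, 9 and 8 called members in the 7 comparisons. It ended C1qb in the tumor line against wild-type BM-MSC (adjusted p = 0.0507) and Csf1r in null BM-MSC against null ASC (0.0534), and passed Tyrobp in null BM-MSC against null ASC (0.041). Lone arrays left by omission are assumed to vary like the other groups. Tyrobp, C1qa, Lyz2 and H2-Ab1 are limited by signal over background where a bound is given.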
